A study of Homo sapiens with 9 samples.

Results

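AML and monocyte surface antigens are the cell surface proteins by which myeloid leukaemia is typed in flow cytometry and against which antibodies and engineered T cells are directed. The set examined here held 10 genes of the 56541 in the table: CLEC12A, CD33, LILRB4, HAVCR2, CD47, CD86, CD38, CD36, CD14 and CD68. They were chosen by function, with their fold changes after BCLAF1 knock-down already known, so their knock-down values below are a description; where a call of the fit over all genes is given for them, it supports nothing. MOLM-13 is a human acute myeloid leukaemia (AML) line. The shCONTROL group was RNA-seq of cells given the control hairpin, the shBCLAF1 group was RNA-seq of cells in which the hairpin targeted BCLAF1 (a protein of the nucleus that binds RNA), and the RIP group was RNA recovered with BCLAF1 from shCONTROL cells. Each group held 3 libraries, and all cells, controls included, had 4 days of doxycycline at 200 ng/uL. The labels give neither the number of hairpins per gene nor whether replicates were separate cultures, so the p-values measure the spread between these libraries only.

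As background, these antigens fall into a few roles. CLEC12A, a C-type lectin, CD33, a sialic acid-binding lectin, and LILRB4, an immunoglobulin-like receptor, carry inhibitory motifs in their cytoplasmic tails that recruit the phosphatases PTPN6 and PTPN11, and HAVCR2 (TIM-3) is an immune checkpoint receptor also found on leukaemic stem cells. CD47 signals through SIRPA on macrophages to restrain phagocytosis, CD86 is a costimulatory ligand of CD28 and CTLA4 on T cells, and CD38 is an ectoenzyme that consumes NAD. CD14 passes lipopolysaccharide to TLR4 and marks mature monocytes, CD36 is a scavenger receptor that takes up fatty acids and oxidised lipoproteins, and CD68 is a lysosome-associated glycoprotein of monocytes and macrophages that lies mostly inside the cell.

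The sequences just upstream of 4 of these genes are shown because they span the range of behaviour described below: CLEC12A and CD68 had higher counts after knock-down, CD47 differed little, and CD14 was listed at 0. Each line holds the 250 bases before the RefSeq start, 5′ to 3′ on the gene's own strand (GRCh38.p14). Capitals mark matches, on either strand, to AGGAAG (the core recognised by PU.1 and other ETS factors), TTGCNNAA (C/EBP), TGTGGT (RUNX) and TGCGCNTGC (NRF1).
CLEC12A, chr12:9971159-9971408, plus strand: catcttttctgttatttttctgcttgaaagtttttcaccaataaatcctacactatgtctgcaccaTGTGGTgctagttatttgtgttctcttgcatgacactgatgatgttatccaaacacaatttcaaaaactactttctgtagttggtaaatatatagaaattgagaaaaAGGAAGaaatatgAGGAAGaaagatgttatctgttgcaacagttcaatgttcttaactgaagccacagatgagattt
CD68, chr17:7579388-7579637, plus strand: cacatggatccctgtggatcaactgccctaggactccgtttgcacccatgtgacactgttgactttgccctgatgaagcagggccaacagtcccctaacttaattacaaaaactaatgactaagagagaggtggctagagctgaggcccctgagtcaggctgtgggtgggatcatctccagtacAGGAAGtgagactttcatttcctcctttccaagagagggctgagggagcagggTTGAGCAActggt
CD14, chr5:140633176-140633425, minus strand: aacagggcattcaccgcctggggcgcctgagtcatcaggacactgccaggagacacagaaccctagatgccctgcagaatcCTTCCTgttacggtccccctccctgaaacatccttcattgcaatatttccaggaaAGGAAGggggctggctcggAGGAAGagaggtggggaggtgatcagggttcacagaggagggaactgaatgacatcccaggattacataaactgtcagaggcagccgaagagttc
CD47, chr3:108091032-108091281, minus strand: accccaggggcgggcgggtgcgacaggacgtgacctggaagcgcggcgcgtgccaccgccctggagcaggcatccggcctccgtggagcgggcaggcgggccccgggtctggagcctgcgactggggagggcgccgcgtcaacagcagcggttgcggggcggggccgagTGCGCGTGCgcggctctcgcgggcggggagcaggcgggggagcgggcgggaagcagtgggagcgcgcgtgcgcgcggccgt

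The CLEC12A window held AGGAAG with first bases 77 and 64 bases before the start, and TGTGGT at 184. It had a GC content of 32.8% and no CpG. The CD68 window held AGGAAG at 66 and TTGCNNAA at 13, with 51.6% GC and 1 CpG. The CD14 window held AGGAAG at 169, 114 and 95, with 54.8% GC and 5 CpG. The CD47 window differed in composition, with 79.6% GC, 39 CpG, TGCGCNTGC at 81 and none of the other motifs. Among 35116 RefSeq windows of this length, AGGAAG was in 28.7%, TTGCNNAA in 9.05% and TGCGCNTGC in 3.85%, and TGTGGT was in 3855 windows, and the median window had 58.0% GC and 11 CpG. The starts used for CLEC12A and CD14 lie inside the RefSeq spans of these genes. Among windows not shown, AGGAAG was in those of CD33 and CD36 start 2 (higher after knock-down) and of LILRB4 and CD86 start 1 (lower). AGGAAG was not in the CD38 window (higher) or at the other CD36 and CD86 starts. Such matches describe the letters in these windows and not binding.

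BCLAF1 mRNA measured 322 ± 8.40 CPM (counts scaled to a common library size by TMM, which corrects for library composition) in shCONTROL. It stood at 113 ± 12.5 CPM after knock-down, which is 35.2% of the control, and at 1079 ± 59.5 CPM in the RIP; errors are SD with n = 3. Totals ran from 25819144 to 36635268 estimated counts per library, so 3 counts, taken as the floor for counting error only, equalled 0.0819 to 0.116 CPM. All 12 genes of a myeloid leukaemia identity list were detected. Of lists for other cell types, T cell genes summed to 35.0 to 39.1 CPM in the controls, 21.4 to 27.3 CPM after knock-down and 34.9 to 39.0 CPM in the RIP, from CD3D, TRAC and, in shBCLAF1, CD5. CD3E, CD3G, CD2 and CD8A were listed at 0 throughout. NK cell genes, from NKG7 alone, summed to 18.8 to 20.3 CPM in the controls and 2.50 to 3.70 in the RIP. B cell genes stayed at or under 3.32 CPM, and megakaryocyte genes at or under 12.9. The erythroid list was at 0 in both RNA-seq groups and between 1.24 and 60.3 CPM in the RIP, from HBA1 and HBA2. The part of such RNA in the results below was not tested. In this table a 0 can stand beside 100 or more counts in the same group, which happened for 165 genes in the controls, 175 genes after knock-down and 226 genes in the RIP, so a gene is called listed at 0 and not absent.

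Of the 10 antigen genes, 8 passed the filter on low counts in each comparison. CD14 (ENSG00000170458, chromosome 5, 140631732 to 140633701) was listed at 0 in all 9 libraries, so this defining monocyte marker had no counts. In this table that need not mean absence. The CD14 interval lies within the span of TMCO6, which held 649 to 676 counts in shCONTROL and 417 to 471 in shBCLAF1. HAVCR2 was listed at 0 in 8 libraries and held 54 counts, or 1.87 CPM, in RIP replicate 3 alone.

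The knock-down comparison asks which antigen mRNAs differ when BCLAF1 is depleted. In CPM, CLEC12A, CD36, CD68, CD38 and CD33 were higher in every shBCLAF1 library than in every shCONTROL library. The largest log2 fold change was that of CLEC12A. CD86 and LILRB4 were lower in every shBCLAF1 library, and CD47 overlapped between the groups. The share of all tested genes without overlap was not counted, so nothing is read from this separation. By the edgeR quasi-likelihood test over all genes, 5 of the 8 tested antigens passed as higher and 2 as lower (threshold 0.05 after adjustment), beside 15.5% and 16.9% of the 16961 genes tested. Because the antigens were picked with this comparison known, nothing is read from that count. The median log2 fold change was 0.43 over the 8 genes and 0.017 over all genes tested. In bulk RNA, a change in the number of cells that carry a transcript and a change in its amount per cell cannot be told apart.

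**Figure D1:**
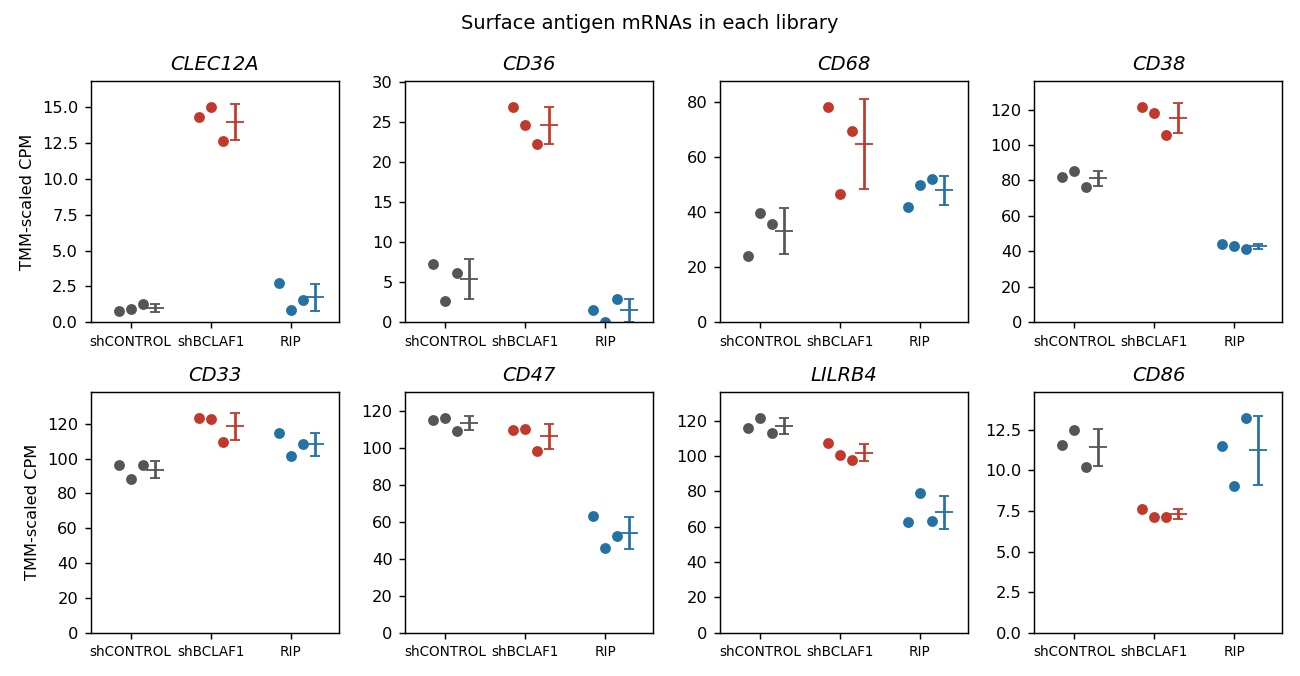
TMM-scaled CPM of the 8 antigen mRNAs that passed the filter, with 1 point per library and the mean ± SD (n = 3) beside each group. CLEC12A and CD36 sit far higher in shBCLAF1 than in the other groups, while CD47, CD38 and LILRB4 sit lowest in the RIP.

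Among the inhibitory receptors, CLEC12A (ENSG00000172322, chromosome 12, 9951268 to 10006150) measured 0.793, 0.888 and 1.28 CPM in shCONTROL replicates 1, 2 and 3, and 14.3, 15.0 and 12.6 CPM in shBCLAF1. The groups lay far apart, at 28 to 46 counts against 463 to 569. Its log2 fold change of 3.76 (SE 0.21) was exceeded by 0.366% of the genes tested. With any 1 library left out it ran from 3.64 to 3.98. Within the RefSeq span of CLEC12A lies CLEC1B, a platelet-type lectin receptor, with 32, 41 and 28 counts in shBCLAF1 and 0 in the other 6 libraries. The neighbouring paralogue CLEC12B held 20, 18 and 0 counts in shBCLAF1 and 0 elsewhere, and the antisense gene CLEC12A-AS1 was listed at 0 throughout. CLEC1B and CLEC12B were picked out after their values were seen, for their place beside CLEC12A.

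CD33 (ENSG00000105383, chromosome 19, 51211076 to 51240016), the target of gemtuzumab ozogamicin, measured 96.5, 88.3 and 96.3 CPM in shCONTROL and 124, 123 and 110 CPM in shBCLAF1. Every shBCLAF1 library was the higher, by a modest margin, with a mean of 126.5% of the control and a log2 fold change of 0.34 (SE 0.065). The pseudogene SIGLEC22P overlaps the RefSeq span of CD33, so a share of their reads could be exchanged; it held 374 to 425 counts in shCONTROL and 393 to 476 in shBCLAF1. LILRB4 (ENSG00000186818, chromosome 19, 54662985 to 54668718) moved the other way, with 116, 122 and 113 CPM in shCONTROL and 107, 101 and 97.6 in shBCLAF1. The groups did not overlap but the gap was small, with a log2 fold change of -0.20 (SE 0.051), and its call was lost in 8 of 13 alternatives, among them those without shCONTROL replicate 1 (-0.19) or 2 (-0.16) and without shBCLAF1 replicate 2 (-0.19) or 3 (-0.16). LILRB4 belongs to a family of similar genes in 1 cluster, so its counts can include reads of relatives.

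Of the ligands, CD47 (ENSG00000196776, chromosome 3, 108043091 to 108091031) measured 115, 116 and 109 CPM in shCONTROL and 110, 110 and 98.5 in shBCLAF1, so that the groups overlapped. Its log2 fold change was -0.091 with a 95% interval of -0.23 to 0.050. CD86 (ENSG00000114013, chromosome 3, 122055362 to 122121136) measured 11.6, 12.5 and 10.2 CPM in shCONTROL and 7.65, 7.16 and 7.12 in shBCLAF1. All shBCLAF1 libraries were lower, at a mean of 63.98% of the control and a log2 fold change of -0.64 (SE 0.10).

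The ectoenzyme CD38 (ENSG00000004468, chromosome 4, 15778328 to 15853232), which daratumumab targets in myeloma, measured 81.9, 85.2 and 76.5 CPM in shCONTROL. Its shBCLAF1 libraries stood at 122, 118 and 106 CPM, all above the controls, with a log2 fold change of 0.51 (SE 0.070). Its relative BST1, an ectoenzyme of the same family, rose by more, by 0.94 on the log2 scale (SE 0.057, edgeR adjusted p 2.41e-04). The difference between these paralogues was not tested.

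Of the scavenger and lysosomal antigens, CD36 (ENSG00000135218, chromosome 7, 80602207 to 80679274) measured 7.33, 2.63 and 6.20 CPM in shCONTROL and 26.9, 24.7 and 22.3 in shBCLAF1. The controls varied, with 259, 89 and 223 counts, yet all lay under the shBCLAF1 libraries, at 818 to 1025 counts. The log2 fold change was 2.18 (SE 0.36), and it ran from 1.87 without shCONTROL replicate 2 to 2.48 without shCONTROL replicate 1. The call was lost when all 9 libraries were fitted together (2.18, edgeR adjusted p 0.169). CD68 (ENSG00000129226, chromosome 17, 7579638 to 7582111) measured 23.9, 39.8 and 35.7 CPM in shCONTROL and 78.1, 46.5 and 69.4 in shBCLAF1. The spread was wide in both groups (24.9% and 25.2% of the mean), with a log2 fold change of 0.97 (SE 0.26). CD68 no longer passed without shCONTROL replicate 1 (0.79) or 3 (1.03), nor without shBCLAF1 replicate 1 (0.81) or 3 (0.92). The antisense RNA MPDU1-AS1 overlaps the end of CD68 by 145 bases and held 61 to 88 counts in shCONTROL and 118 to 123 in shBCLAF1, a value that was picked out after it was seen.

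**Figure D2:**
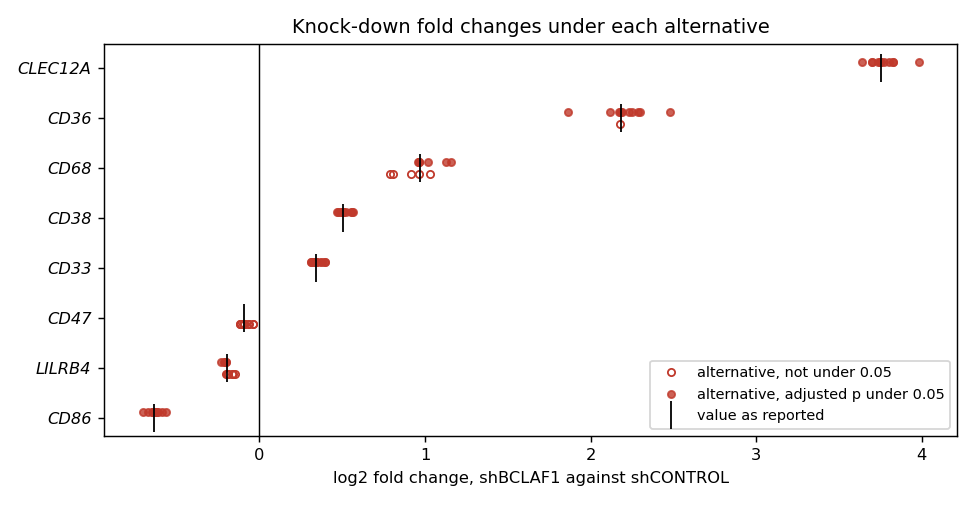
Knock-down log2 fold change of each antigen as reported (black bar) and under 12 alternatives that change 1 processing choice or leave out 1 library (filled, adjusted p under 0.05; open, not). The order of CLEC12A, CD36 and CD68 was the same in every alternative, whereas LILRB4, CD68 and CD36 have both filled and open points.

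The RIP comparison asks which mRNAs were recovered with BCLAF1 beyond their level in the shCONTROL RNA-seq, which was made from fewer cells per library. It shares the shCONTROL libraries with the knock-down, and no mock precipitation is among the samples used here, so the values set recovered RNA against total RNA and do not separate binding from background. Of the 8 antigens tested, 3 were called lower in the RIP (CD47, CD38 and LILRB4), beside 24.7% of the 16727 genes tested, and 0 were called higher, beside 24.6%, by the edgeR quasi-likelihood test. At an unadjusted p under 0.05, 1 was higher and 3 lower, beside 9310 of the 16727 genes in either direction. DESeq2 called 2 antigens higher, beside 4497 genes. The median log2 fold change was -0.41 over the 8 genes and -0.049 over all genes tested. Scaling by total counts moved the median over all genes by -0.12 and left these calls in place.

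CD47 measured 63.0, 45.9 and 52.3 CPM in RIP replicates 1, 2 and 3, all under the lowest shCONTROL library at 109 CPM. On the log2 scale CD47 stood at -1.09 against the control (SE 0.12, edgeR adjusted p 0.00102), and it was called in all 15 alternatives. CD38 measured 44.0, 43.2 and 41.4 CPM in the RIP, or 52.77% of the control, or -0.93 in log2 (SE 0.077, edgeR adjusted p 4.15e-04). LILRB4 measured 62.5, 78.9 and 63.1 CPM, or 58.32% of the control, or -0.78 in log2 (SE 0.12, edgeR adjusted p 0.00279). These 3 mRNAs were thus lower in every RIP library than in every shCONTROL library, and also than in every shBCLAF1 library. The share of all tested genes separated in this way was not counted.

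The other 5 antigens did not pass. CD33 measured 114, 101 and 109 CPM in the RIP, all above its shCONTROL libraries. Its log2 fold change was 0.20 with a 95% interval of -0.0061 to 0.40. CD68 measured 41.9, 49.6 and 52.0 CPM, all above its shCONTROL libraries, with a log2 fold change of 0.53 and an interval of 0.031 to 1.02 (edgeR adjusted p 0.0757). Against shBCLAF1 libraries its log2 value was -0.44 (adjusted p 0.125). CD86 measured 11.5, 9.02 and 13.3 CPM, on either side of its controls, with a log2 fold change of -0.030 and an interval of -0.45 to 0.39.

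The 2 antigens with the widest change after knock-down were imprecise in the RIP. CLEC12A held 70, 24 and 45 counts, or 2.75, 0.849 and 1.56 CPM, overlapping the controls, with a log2 fold change of 0.75 and an interval of -0.44 to 1.94. CD36 measured 1.49, 0 and 2.91 CPM, with an interval of -4.89 to 1.20. A CD36 level several fold lower in the RIP thus lay within the interval, as did no difference.

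**Figure D3:**
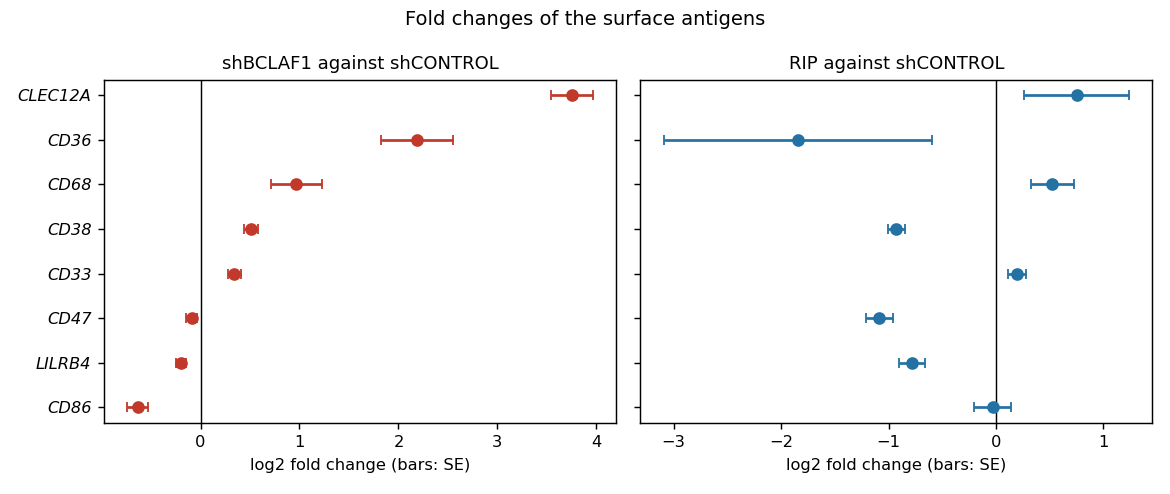
Log2 fold changes (points) with SE (bars) of the 8 antigens after knock-down (left) and in the RIP (right), both against the same 3 shCONTROL libraries. CLEC12A reaches 3.76 on the left, CD47, CD38 and LILRB4 lie between -1.09 and -0.78 on the right, and CD36 has the widest bar on the right.

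The gene lists here and below were drawn up with earlier results of these data known, so their counts are a description only. Other myeloid maturation surface antigens were followed in a list of 41 genes, of which 27 passed the filter after knock-down. Of these, 10 rose and 4 fell, beside the 15.5% and 16.9% of all genes, with a median log2 fold change of 0.22. The 10 include CD177, listed at 0 in shCONTROL with 63 to 74 counts in shBCLAF1, and the 4 include CD9, listed at 0 in shBCLAF1. Each passed the filter only through the group where it was high. Those that rose included FCAR, the Fc receptor for IgA (log2 fold change 2.55), ANPEP, the aminopeptidase CD13 (1.06), CD93 (0.96) and the monocyte chemokine receptor CCR2 (0.68), with edgeR adjusted p from 1.41e-04 to 5.22e-04. CX3CR1, the fractalkine receptor of patrolling monocytes, fell by 2.38 on the log2 scale, from 288 to 307 counts per library to 51 to 70. ITGAX, an integrin chain of monocytes and dendritic cells, fell by 0.41, and LILRA1, an activating relative of LILRB4, fell by 0.46. CD9, a tetraspanin, held 172, 451 and 65 counts in shCONTROL and was listed at 0 after knock-down, which need not mean absence. Against a floor of 3 counts per library, this was a fall of at least 83.5-fold, for counting error only. Without shCONTROL replicate 2, which held the 451 counts, it was at least 41.7-fold, an alternative chosen after seeing the data. CD163, MRC1, FPR1, TLR8 and CD300E, markers of macrophages and mature monocytes, were listed at 0 in all 9 libraries, as CD14 was.

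Of 30 other AML target and progenitor antigens, 17 were tested after knock-down, of which 6 were higher and 6 lower, beside 15.5% and 16.9% of all genes. GPR183, an oxysterol receptor, rose by a log2 fold change of 1.39, CD244, a receptor of the SLAM family, by 1.02, CD82, a tetraspanin, by 0.75 and the TNF receptor TNFRSF1B by 0.32. SLC3A2, the heavy chain of amino acid transporters (CD98), fell by 1.06, NCAM1 (CD56) fell by 0.33 and CD70 fell by 0.23 on the log2 scale. CD34, KIT and PROM1, which mark stem and progenitor cells, were listed at 0 in every library. IL3RA (CD123) and CD99 were also listed at 0, and both lie in the pseudoautosomal region shared by the X and Y chromosomes. Whether that location bears on their zeros was not tested.

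Of 44 relatives of the antigens, 18 passed the filter, of which 5 rose and 3 fell (median log2 fold change -0.064), beside the same 15.5% and 16.9% of all genes. The 5 include CLEC1B, listed at 0 in shCONTROL, which passed the filter only through shBCLAF1. LAMP1, a relative of CD68, rose by 0.43, LILRB1, an inhibitory relative of LILRB4, by 0.33 and HHLA2, a B7 family relative of CD86, by 0.92. SCARB1, a scavenger receptor related to CD36, fell by 0.31 and ICOSLG, another B7 ligand, fell by 0.57. None of the 4 sialic acid-binding relatives of CD33 tested, SIGLEC6, SIGLEC7, SIGLEC9 and SIGLEC10, passed (log2 fold changes of -0.18, -0.60, -0.39 and 0.16, with edgeR adjusted p from 0.0619 to 0.461).

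Of 30 tested ligands, co-receptors and signalling partners, 9 rose and 7 fell after knock-down (median -0.033), again beside 15.5% and 16.9%. TLR4, the receptor to which CD14 delivers lipopolysaccharide, rose by a log2 fold change of 1.48, and it was counted in the maturation list too. SOCS3, a feedback inhibitor of cytokine signalling, rose by 1.18, TYROBP, an adaptor of activating myeloid receptors, by 0.59 and SIRPB1, a paralogue of the CD47 receptor, by 0.53. SIRPA itself did not pass (-0.070, adjusted p 0.250), nor did the phosphatase PTPN6 (0.029, adjusted p 0.641, edgeR quasi-likelihood test). FYN, a Src kinase, fell by 0.97, CBL, a ubiquitin ligase, by a log2 change of -0.48 and IRAK1, a kinase of the TLR pathway, by one of -0.48. THBS1, a ligand of CD47 and CD36, held 275, 253 and 298 counts in shCONTROL and was listed at 0 after knock-down. Against the same floor, this was a fall of at least 98.2-fold, again for counting error only.

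In the RIP, the maturation list held 11 genes called lower and 3 higher among 26 tested (median log2 fold change -0.51), beside 24.7% and 24.6% of all genes. CD300A fell by 1.07 and CD74, the invariant chain, by a log2 change of -0.99, while MSR1 (0.96) and PLAUR (0.87) were higher. Without shCONTROL replicate 1 the number lower was 7. Among the relatives, 6 of 17 were lower and 1 higher (median -0.63), with LAMP2 at -2.55 and LAMP1 at -1.97, and with CLEC2D higher at 1.04. Among the other AML targets 5 of 17 were lower and 3 higher, with CD82 at -1.46 and CD70 at -1.37 against CD44 at 1.15 and FLT3 at 0.88. The 5 lower became 3 without shCONTROL replicate 1 or 2. Among the partners 7 of 29 were lower and 7 higher, with LGALS9, the galectin ligand of HAVCR2, at -1.56 and TYROBP at -1.12 against LYN at 1.18 and FYN at 1.09. The 7 higher became 4 without any 1 shCONTROL replicate.

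**Figure D4:**
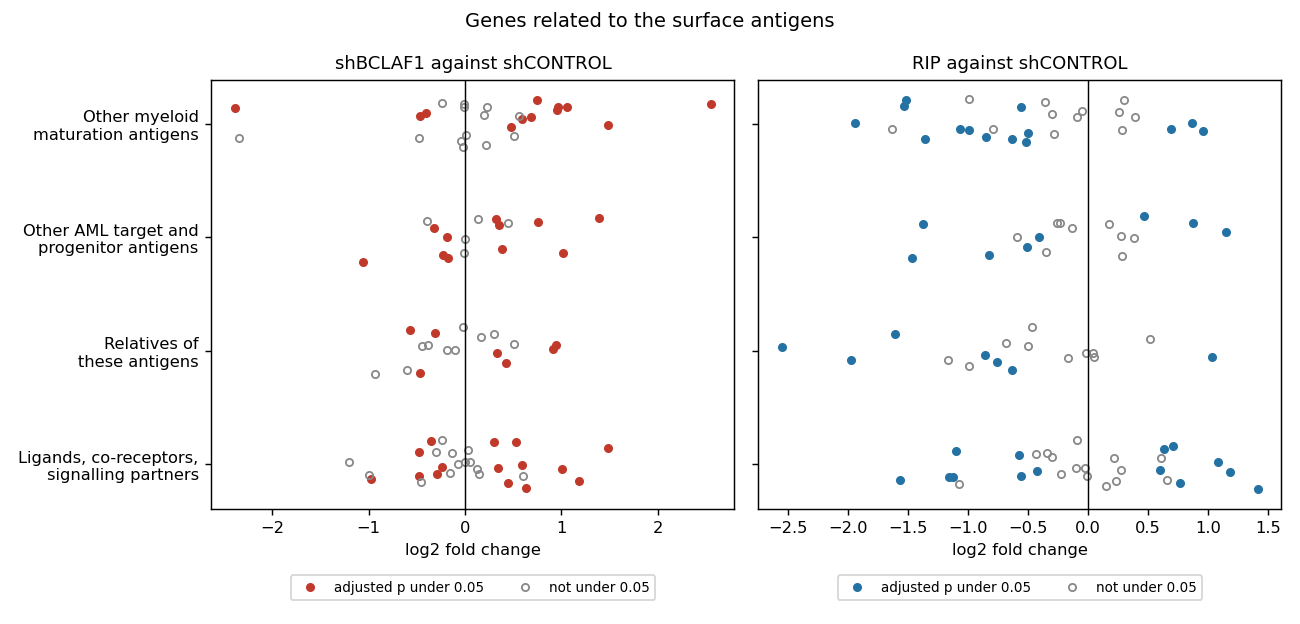
Log2 fold changes of the 4 lists of related genes after knock-down (left) and in the RIP (right), with 1 point per gene tested, filled where the adjusted p was under 0.05; genes at or under 3 counts in every library of 1 group are left out. Filled points lie on both sides of 0 in every list, and in the RIP the maturation list has 11 filled points below 0 and 3 above.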

How the data were processed

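RNA of MOLM-13 cells was measured in 9 libraries of 3 groups. The authors deposited 1 table of estimated counts (expected counts) per gene, not normalized. Per the submitters' processing notes, STAR 2.7.11b, StringTie 2.2.3 and build hg38 were used; the annotation, strand setting and roles are not given in the sources used here. Per the labels, all libraries carry 1 batch label. The deposited estimated counts were whole numbers. An entry naming no gene, 2.18% to 3.75% of the counts in 8 libraries, was left out.

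Each comparison was fitted on its own 6 libraries with edgeR 4.0.16 in R 4.3.3 (default filter on low counts, TMM, prior count of 2, quasi-likelihood F-test), with Benjamini-Hochberg adjustment over all genes tested and a threshold of 0.05. DESeq2 1.42.0 gave an alternative. Levels are CPM with TMM over all 9 libraries. Standard errors come from the coefficient and its F statistic. The fit was tested on simulated data, where it recovered a smaller share of the changed genes in the RIP than in the knock-down. Replicates differed by more than sampling noise (chi-square per degree of freedom of at least 16.5).

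The antigens and gene lists were chosen with earlier results of these data known. Named were the 10 antigens and BCLAF1. Per list, up to 4 genes after knock-down and 2 in the RIP per direction were named. These had the smallest adjusted p among called genes with a mean of at least 50 counts. Genes at 0, CD177, overlapping genes, the SIGLEC relatives, SIRPA and PTPN6 were named outside this rule after their values were seen. RefSeq tables (GRCh38.p14) held all 10 genes and upstream windows for 9.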

Additional observations from a re-analysis of the deposited data

How the results depend on the processing

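Over 13 knock-down and 15 RIP alternatives (scaling, filter, tool, fit of all 9 libraries, replicate block, each library left out, a minimum change and, for the RIP, other references), the direction of CLEC12A, CD36, CD68, CD38, CD33, CD47, CD86 and LILRB4 after knock-down was kept. A minimum log2 fold change of 1 left 301 genes higher and 380 lower after knock-down, with 2 and 0 antigens, and 1846 higher and 2253 lower in the RIP, with 1 antigen lower; fewer genes qualify by construction. The fit of all 9 libraries gave 1129 higher and 1318 lower genes and 1 antigen lower, and it left 2, 2, 0 and 3 genes lower in the maturation, AML target, relatives and partners lists; the cause was not tested. Total counts also gave 1 antigen lower, beside 2486 genes. With 1 library left out, 4 to 5 antigens were higher and 1 to 2 lower after knock-down, beside 1975 to 2642 and 2171 to 2730 genes. In the RIP, 0 antigens were then higher and 3 lower, beside 3116 to 4222 and 3218 to 4568 genes.

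In the RIP, DESeq2 called 2 antigens higher (CD33, adjusted p 0.0436, and CD68, adjusted p 0.0438), beside 4497 higher among all genes. Against shBCLAF1 RNA-seq, 5 antigens were lower and 1 higher, beside 4207 and 4192 among all genes. Against the average of shCONTROL and shBCLAF1, 5 were lower and 0 higher, beside 5070 and 5089. CLEC12A then reversed, to -2.99 and -1.11, and CD86 to 0.61 against shBCLAF1, since the reference itself differs for these genes after knock-down. CD33 and CD68 also changed sign against shBCLAF1, to -0.14 and -0.44. Neither passed the edgeR test against shCONTROL or against shBCLAF1.

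The counts do not settle whether replicate numbers pair the libraries. Correlations of same-numbered deviations were small in the knock-down, at 0.017 to 0.0738, yet 6 of 6 libraries correlated best with their own number. In the RIP these correlations were -0.0198 to 0.0198, and 2 of 6 libraries correlated best with their own number. With the replicate block, 2271 genes were higher and 2538 lower after knock-down, with 4 antigens higher and 1 lower (the calls of CD68, adjusted p 0.100, and LILRB4, adjusted p 0.0506, were lost), and 3244 higher and 3262 lower in the RIP, with 1 antigen higher (CD68) and 3 lower; of the AML targets 3 were lower in the RIP. CLEC12A and CD36 held at most 84 counts in any RIP library.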

Other observations

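For each antigen, the gene whose level followed it most closely across the 9 libraries is given by Pearson's r of log2(CPM + 1), among 10607 genes (10608 for CD36) with a symbol, a mean of at least 5 CPM and a value above 0 in every library. The 9 libraries fall into 3 groups and share depth and preparation within a group, so these values are a description only. CD38 was followed most closely by STK17B, a kinase linked to apoptosis (r = 0.9986), which had 169 CPM in the controls, 220.2 CPM after knock-down and 103 CPM in the RIP. CD47 was followed by CHRAC1, a histone-fold protein of a chromatin remodelling complex (r = 0.9982), LILRB4 by ESYT2, a protein of membrane contact sites (r = 0.9963), and CD86 by CBX3, a heterochromatin protein (r = 0.9754). CLEC12A was followed by AP3B1, an adaptor subunit of lysosomal sorting (r = 0.9882), which itself measured 152 CPM in the controls, 214 CPM after knock-down and 154 CPM in the RIP. CD36 was followed by ELOVL3, a fatty acid elongase (r = 0.9849), CD33 by NETO2 (r = 0.9541) and CD68 by ZSCAN31 (r = 0.9411).

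Of 12 genes of the myeloid leukaemia identity list, 3 were higher and 5 lower after knock-down, beside 15.5% and 16.9% of all genes tested. LYZ, the lysozyme of monocytes and granulocytes, rose by a log2 fold change of 1.86 and SPI1, which encodes PU.1, by 0.37. MEIS1 fell by 0.86, HOXA9 by a log2 change of -0.43, KMT2A by one of -0.41 and MYB by one of -0.25. In the RIP, LYZ stood at -3.97 and MPO at -0.66, while MYB stood at 1.21 and HOXA9 at 0.73.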
